A study of Homo sapiens with 6 samples.

Results

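The TNF receptor superfamily members described here are 10 genes, TNFRSF1A, TNFRSF1B, CD40, CD27, LTBR, TNFRSF10A, TNFRSF10D, TNFRSF21, TNFRSF8 and TNFRSF18, of 57820 gene rows measured. They were chosen by symbol with earlier results in view, because TNFRSF1B stood near the floor in control cells and higher in MYC cells. The contrast of MYC with control in these 10 genes is therefore a description, with no p-value. Poly-A RNA was sequenced from U266, an established human line labelled as myeloma and plasmacytoma and grown in RPMI-1640 with serum. The 3 control samples were compared with 3 samples that overexpress MYC, made by transduction with a lentiviral vector in which the EF1A promoter, active in most cell types, drives MYC. Whether a vector was also put into the controls, whether a line is 1 clone, and whether the samples of a group are separate cultures is not stated, so the p-values measure the spread between these samples, which may be technical.

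The receptors of this superfamily bind trimeric ligands of the TNF family at the cell surface and lack enzyme activity of their own. Those with a death domain (TNFRSF1A, TNFRSF10A and TNFRSF21 here) recruit adaptors such as TRADD or FADD and can signal to caspases. Most of the others bind TRAF proteins and signal to NF-kB and MAP kinases, but not decoys such as TNFRSF10D. In B cells and plasma cells the family carries survival and costimulation signals, and TNFRSF17, known as BCMA, is a surface target in myeloma.

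The stretches upstream of the start sites are shown for the pair that differed in opposite directions (TNFRSF1A and TNFRSF1B), for TNFRSF8, which lies next to TNFRSF1B, and for LTBR and TNFRSF21, whose upstream stretches hold CACGTG, the E-box sequence bound by MYC with MAX. Of the 10 members, 7 had an entry in the RefSeq promoter table (build GRCh38.p14), and CD40, TNFRSF10A and TNFRSF10D had none. Each line gives the 250 bases before the start site, 5′ to 3′ on the gene's strand, and capitals mark CANNTG, of which CACGTG is one form, on either strand.
TNFRSF1B, chr1:12166741-12166990, plus strand: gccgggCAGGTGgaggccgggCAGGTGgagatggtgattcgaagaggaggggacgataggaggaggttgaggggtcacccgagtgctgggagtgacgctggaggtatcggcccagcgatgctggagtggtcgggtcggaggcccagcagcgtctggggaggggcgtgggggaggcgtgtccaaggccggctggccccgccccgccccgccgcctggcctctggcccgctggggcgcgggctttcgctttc
TNFRSF8, chr1:12063053-12063302, plus strand: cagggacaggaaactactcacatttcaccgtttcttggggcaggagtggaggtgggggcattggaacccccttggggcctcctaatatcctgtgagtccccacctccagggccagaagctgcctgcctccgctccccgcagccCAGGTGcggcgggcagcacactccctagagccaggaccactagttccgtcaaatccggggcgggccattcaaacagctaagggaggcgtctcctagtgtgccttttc
TNFRSF1A, chr12:6342077-6342326, minus strand: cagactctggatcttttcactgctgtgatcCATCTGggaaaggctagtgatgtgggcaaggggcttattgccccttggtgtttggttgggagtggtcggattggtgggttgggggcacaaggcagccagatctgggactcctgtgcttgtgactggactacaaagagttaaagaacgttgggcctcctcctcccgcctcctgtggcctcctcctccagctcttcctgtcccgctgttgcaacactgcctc
LTBR, chr12:6383912-6384161, plus strand: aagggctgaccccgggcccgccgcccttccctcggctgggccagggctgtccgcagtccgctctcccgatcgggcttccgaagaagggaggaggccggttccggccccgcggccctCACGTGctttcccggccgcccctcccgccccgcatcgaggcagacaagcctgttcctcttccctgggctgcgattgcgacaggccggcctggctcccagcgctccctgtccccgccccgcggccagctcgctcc
TNFRSF21, chr6:47309906-47310155, minus strand: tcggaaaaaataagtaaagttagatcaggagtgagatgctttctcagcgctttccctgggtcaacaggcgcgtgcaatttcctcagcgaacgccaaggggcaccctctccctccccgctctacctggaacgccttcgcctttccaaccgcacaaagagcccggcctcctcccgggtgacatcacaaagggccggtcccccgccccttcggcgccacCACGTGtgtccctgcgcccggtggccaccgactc

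CACGTG was found 134 bases before the start of LTBR and 34 bases before that of TNFRSF21, and 6.35% of 35114 promoter windows of this length hold it. TNFRSF1B held CAGGTG, another CANNTG form, 244 and 229 bases before its start, and 61.8% of windows hold some CANNTG. The NF-kB consensus, searched on both strands and held by 9.96% of windows, had no match in the 7 windows. The TNFRSF1B window had a GC content of 72.4% with 22 CpG, that of TNFRSF8 61.6% with 9 CpG and that of TNFRSF1A 56.8% with 4 CpG, against a median GC content of 58% over all windows. These matches describe the letters only, and binding was not measured here.

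Values are CPM (counts scaled by library size and TMM factors), which are not corrected for gene length, or the deposited TPM, which are also scaled by transcript length and allow genes to be compared. Libraries held between 27139978 and 158667309 expected counts, and a floor of 3 counts corresponded to between 0.0193 and 0.113 CPM. MYC itself had 3.91 to 4.51 CPM in the controls but 92.1 to 110 CPM in the libraries labelled MYC. The 9 plasma cell markers were abundant, with a summed TPM of 3881 to 4405 in control and of 3571 to 3656 in the MYC libraries, which did not overlap. Of these 9, 5 were called lower in both fits, from the counts and with the GC offset described next. SDC1 fell 2.25-fold, or 1.29-fold with the offset, and IRF4 1.63-fold, or 1.65-fold. JCHAIN, the most abundant of the 9 (mean 1825 TPM in control, 2043 in MYC), was called 1.14-fold higher from the counts only. MZB1 was called 2.02-fold higher with the offset only, and SLAMF7 and POU2AF1 were called lower with the offset only. The part of these markers in the members' values was not tested. GC content moved with the contrast, since AT-rich genes (38 to 42% GC) had a median log2 fold change of 0.24 and GC-rich genes (62 to 66%) one of -1.28. Values from a fit with a GC offset, which removes that trend, are given beside most of the others.

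TNFRSF1B (ENSG00000028137.12, chromosome 1), the TNF receptor that lacks a death domain and signals through TRAF2, was the member with the largest difference. It had 23, 40 and 64 expected counts in control libraries, and those with MYC had 158, 838 and 232. Scaled for depth, this was 0.414, 0.517 and 0.484 CPM in control and 5.98, 5.38 and 4.27 CPM in MYC. Every MYC library lay above every control, with no overlap. The mean went from 0.472 ± 0.0526 to 5.21 ± 0.868 CPM (SD, n = 3 each), a log2 fold change of 3.44 ± 0.17 (SE), or 10.8-fold. Per length, TNFRSF1B stood at 0.19 TPM in each control and at 2.09, 1.97 and 1.65 TPM in the MYC libraries. With the GC offset it was 18.7-fold higher, since its transcripts hold 60.2% GC. The 965 tested genes within 1 percentage point of that GC content had a median log2 fold change of -0.77, and their 95th percentile was 0.35. In all, 176 of 17679 tested genes had a log2 fold change at least as large as that of TNFRSF1B. Of these, 163 were among the 2885 tested genes that were as low or lower in control. The lowest of the 2885 in control entered the test only through their MYC libraries, so this count is no background for TNFRSF1B. The mean transcript length of TNFRSF1B was 3079, 3679 and 3627 bases in control and 3683, 3622 and 3659 bases in MYC, so the groups overlapped.

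**Figure D1:**
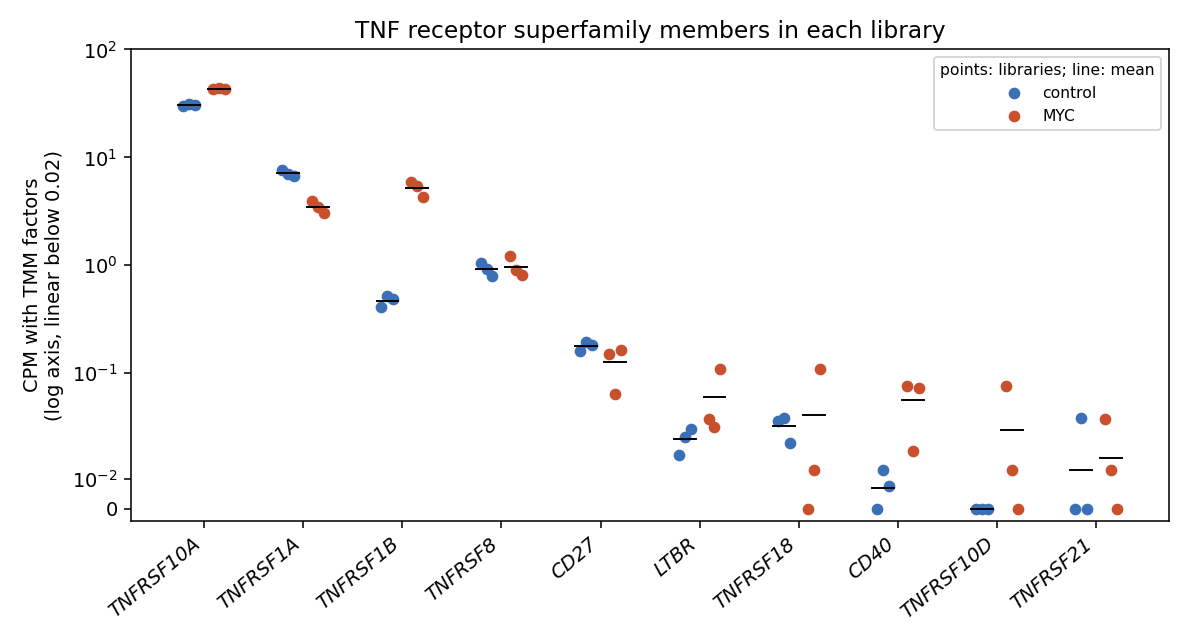
CPM of the 10 members (log axis, linear below 0.02) in each of 3 control (blue) and 3 MYC (red) libraries, with the group mean as a line, ordered by mean TPM over all libraries. TNFRSF1B lies between 0.414 and 0.517 CPM in control and between 4.27 and 5.98 CPM in MYC, and the 5 members to the right of CD27 stay at or near the floor in both groups.

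TNFRSF1A (ENSG00000067182.3, chromosome 12), the broadly expressed TNF receptor whose death domain recruits TRADD, differed in the other direction. Its expected counts were 427, 547 and 889 in control and 104, 539 and 167 in MYC. In CPM it stood at 7.69, 7.07 and 6.72 in control and at 3.93, 3.46 and 3.07 in MYC, and the groups did not overlap. The log2 fold change was -1.05 ± 0.11 (SE), 2.07-fold lower in MYC, and 1.62-fold lower with the GC offset.

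The difference in TNFRSF1A was smaller once length was taken into account. Per length it had 6.37, 5.70 and 5.78 TPM in control and 3.93, 3.96 and 5.68 TPM in MYC. MYC replicate 3 thus lay just under the lowest control, while the other 2 MYC libraries lay well below it. The files list 16 transcripts for TNFRSF1A, and the mean transcript length that the authors' tool assigned to its reads was 1826, 1757 and 1740 bases in control against 1439, 1304 and 940 bases in MYC. Every MYC library was shorter than every control, and the ratio of the means was 0.692. The groups did not overlap in mean transcript length for 31.0% of the 14444 tested genes with more than 1 transcript (14.2% longer and 16.8% shorter in MYC), and 1.94% did so with a ratio at least as far from 1 as that of TNFRSF1A. On the log2(TPM + 0.1) scale the difference of TNFRSF1A was -0.41 ± 0.16 (SE), against -1.05 from the counts. Which of its transcripts were used was not analysed here.

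**Figure D2:**
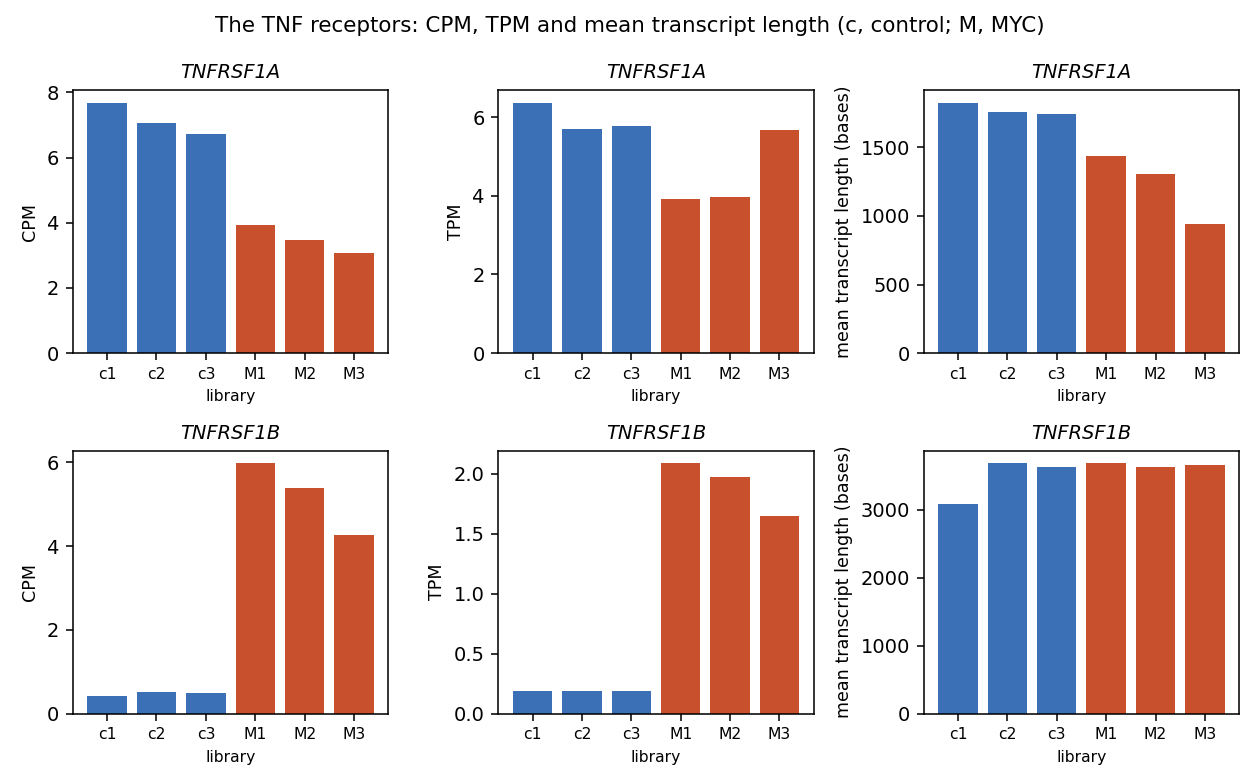
CPM, TPM and mean transcript length in bases (bars from 0) of TNFRSF1A (upper row) and TNFRSF1B (lower row) in 3 control (c1 to c3) and 3 MYC (M1 to M3) libraries. TNFRSF1A is lower in MYC in CPM, but its mean transcript length is also shorter (940 to 1439 bases against 1740 to 1826), and in TPM MYC replicate 3 reaches 5.68, near the controls.

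As a share of the summed TPM of the 2 TNF receptors, TNFRSF1B made up 2.90%, 3.23% and 3.18% in control, and with MYC this share was 34.7%, 33.2% and 22.5%. TNFRSF1A was still the more abundant receptor in each library. Of the ligands of this pair, TNF was low (0.119 ± 0.0107 CPM in control, 0.113 ± 0.0215 with MYC, SD, n = 3 each) and did not enter the test. LTA, lymphotoxin alpha, stood at 5.87 ± 0.512 and 6.13 ± 0.497 CPM and did not pass the test (adjusted p = 0.609, edgeR), although with the GC offset it was 1.37-fold higher (adjusted p = 0.000733, edgeR).

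TNFRSF10A (ENSG00000104689.5, chromosome 8), a death receptor for TRAIL, was the most abundant of the 10 members. It had 1668, 2431 and 4084 expected counts in control and 1146, 6791 and 2327 in MYC. In CPM it stood at 30.0, 31.4 and 30.9 in control and at 43.3, 43.6 and 42.8 in MYC, so that the libraries of a group lay close together and the groups did not overlap. The log2 fold change was 0.49 ± 0.05 (SE), 1.40-fold higher, and 1.44-fold higher with the GC offset. Per length the level was 16.1, 16.1 and 16.4 TPM in control and 21.1, 21.9 and 22.8 TPM in MYC.

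TNFRSF10B, the other TRAIL death receptor, which is no member of the list, fell 1.89-fold (1.85-fold with the GC offset), from 68.5 ± 0.71 to 36.4 ± 1.85 CPM (SD, n = 3 each, adjusted p = 8.44e-06, edgeR). TNFRSF10A thus made up 35.1%, 36.3% and 35.5% of the summed TPM of both receptors in control and 57.3%, 58.8% and 60.2% in MYC. The sum of both was 44.2 to 46.1 TPM in control and 36.8 to 37.9 TPM in MYC. Their ligand TNFSF10, or TRAIL, rose 1.71-fold (1.47-fold with the GC offset), from 3.62 to 4.47 CPM in control to 6.53 to 7.14 CPM (adjusted p = 0.000272, edgeR). TNFRSF10B overlaps RHOBTB2 on the other strand, which stood at 118 to 126 CPM in control and at 65.5 to 94.6 CPM in MYC. TNFRSF10C, TNFRSF10D and TNFRSF10A adjoin one another on chromosome 8, the 4 TRAIL receptor genes are alike in sequence, and TNFRSF10A overlaps an antisense RNA at 0.93 to 1.66 CPM and a further transcript at 11.2 to 19.4 CPM. The library kit does not mark strand, so reads of these genes may not have been fully told apart.

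**Figure D3:**
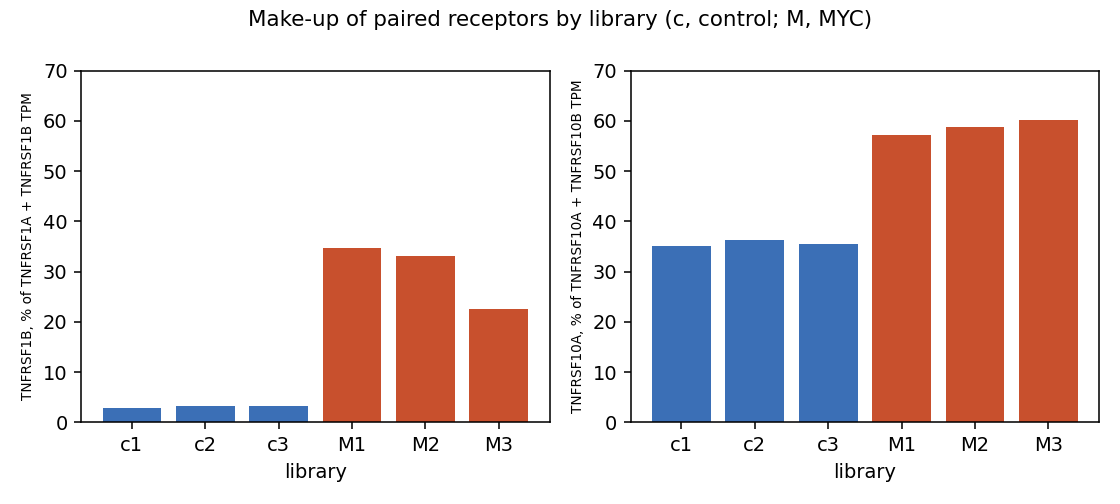
TNFRSF1B as a percentage of the summed TPM of TNFRSF1A and TNFRSF1B (left) and TNFRSF10A as a percentage of that of TNFRSF10A and TNFRSF10B (right), as bars from 0 in each of 3 control (c1 to c3) and 3 MYC (M1 to M3) libraries. Both shares are higher in every MYC library, from at most 3.23% to at least 22.5% on the left and from at most 36.3% to at least 57.3% on the right.

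TNFRSF10D (ENSG00000173530.5, chromosome 8), a TRAIL receptor with a truncated death domain that acts as a decoy, had 0 counts in each control and 2, 2 and 0 counts in MYC. No library passed the floor, which allowed up to 0.0540, 0.0388 and 0.0227 CPM in the controls. TNFRSF21 (ENSG00000146072.6, chromosome 6), or death receptor 6, had 0, 3 and 0 counts in control and 1, 2 and 0 in MYC, also within the floor. No difference was detectable for either gene at this depth. Both have 1 transcript in the files. The decoy TNFRSF10C, by contrast, was present with a mean of 5.49 ± 0.405 CPM in control and of 4.15 ± 0.726 with MYC (SD, n = 3 each). Its decrease (adjusted p = 0.0241, edgeR) did not pass with the GC offset (adjusted p = 0.212, edgeR), and it also ended without MYC replicate 2 (adjusted p = 0.0527) or MYC replicate 3 (0.0504) and without control replicate 2 (0.0594) or control replicate 3 (0.0798).

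TNFRSF8 (ENSG00000120949.10, chromosome 1), known as CD30 and used as a lymphoma marker, is the gene next to TNFRSF1B. It had 59, 72 and 105 expected counts in control and 32, 140 and 44 in MYC. These gave 1.06, 0.931 and 0.794 CPM in control and 1.21, 0.9 and 0.809 CPM in MYC, and the groups overlapped. The log2 fold change was 0.04 ± 0.19 (SE). Its transcripts hold 61.5% GC, where the 862 tested genes within 1 percentage point had a median log2 fold change of -0.97, and with the GC offset TNFRSF8 was 2.01-fold higher in MYC. In TPM it ranged from 0.43 to 0.71 in control and from 0.54 to 0.75 in MYC, again overlapping. Side by side with the offset, the neighbours TNFRSF1B and TNFRSF8 had log2 fold changes of 4.23 ± 0.11 and 1.01 ± 0.17 (SE). Its ligand TNFSF8 had 1 count in all 6 libraries together.

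CD27 (ENSG00000139193.3, chromosome 12), the CD70 receptor of memory B cells and plasma cells, was low throughout. It had 8.65, 15 and 23.6 expected counts in control and 4, 10.4 and 8.59 in MYC. In CPM this was 0.162, 0.194 and 0.181 in control and 0.151, 0.0643 and 0.166 in MYC. MYC replicate 2 lay below the other 5 libraries, and MYC replicate 3 lay within the range of the controls. The log2 fold change was -0.79 ± 0.41 (SE), -0.17 without MYC replicate 2 and -0.19 with the GC offset. Its mean transcript length was 1073 to 1155 bases in control and 1045 bases in each MYC library. CD27 overlaps the antisense gene CD27-AS1, which was more abundant at 5.19 to 6.05 CPM. It also overlaps TAPBPL on its own strand, at 5.94 to 6.08 CPM in control and 3.29 to 4.88 CPM in MYC. CD70, the ligand of CD27, had the highest TPM of the 18 ligands listed and fell from 122 ± 9.7 to 55.4 ± 14.5 CPM (SD, n = 3 each), a decrease of 2.21-fold (adjusted p = 0.00049, edgeR). The decrease of CD70 was 1.42-fold with the GC offset.

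CD40 (ENSG00000101017.9, chromosome 20), the B cell receptor for T cell help, had 0, 1 and 1 counts in control and 2, 3 and 4 in MYC. Its MYC values of 0.0757, 0.0193 and 0.0736 CPM lay above the controls at 0, 0.0129 and 0.00756 CPM, yet only 1 library passed the floor of 3 counts. The TPM of CD40 overlapped between the groups (0 to 0.03 and 0.02 to 0.07). No fold is given for so few counts. Its ligand CD40LG had 1 count in all 6 libraries together.

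LTBR (ENSG00000111321.6, chromosome 12), the lymphotoxin beta receptor, is known mainly from stromal and myeloid cells. It had 1, 2 and 4 counts in control and 1, 5 and 6 in MYC. In CPM this was 0.0180, 0.0259 and 0.0302 in control against 0.0378, 0.0321 and 0.110 in MYC, where MYC replicate 3 stood apart from the other 2. The groups did not overlap in CPM but did in TPM. The ligands of LTBR entered the test: LTB rose 2.29-fold, from 0.838 ± 0.139 to 1.92 ± 0.391 CPM (SD, n = 3 each, adjusted p = 0.000853, edgeR). TNFSF14 was low in control, with 3, 5 and 13 counts. It rose 6.42-fold, from 0.0723 ± 0.0231 to 0.486 ± 0.0935 CPM. TNFSF14 passed the expression filter of the test only through its MYC libraries, so nothing is read from its adjusted p (0.000106, edgeR). With the GC offset LTB was 5.67-fold and TNFSF14 6.96-fold higher. TNFRSF14, another receptor of TNFSF14, fell 3.99-fold (adjusted p = 1.01e-05, edgeR), which the GC offset brought to 1.65-fold.

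TNFRSF18 (ENSG00000186891.9, chromosome 1), known as GITR from regulatory T cells, had 2, 3 and 3 counts in control and 0, 2 and 6 in MYC. The MYC libraries ran from 0 to 0.110 CPM and spanned the controls at 0.0227 to 0.0388 CPM. Its ligand TNFSF18 had at most 3 counts in a library. MYC replicate 3 was thus the 1 library of TNFRSF18 above the floor of 3 counts. Its neighbour TNFRSF4 had no more than 3 counts in any library.

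Of the 10 members, 5 entered the test across all genes (TNFRSF1A, TNFRSF1B, CD27, TNFRSF10A and TNFRSF8) and 5 were too low. By the rule applied to all genes (adjusted p under 0.05, edgeR), 2 of the 5 were higher and 1 was lower, where 60.8% of all tested genes were called, 28.8% higher and 32.1% lower. With the GC offset, 3 were higher and 1 lower, against 59.4% of all tested genes, 30.2% higher and 29.2% lower. Since the contrast was used to choose the list, nothing is read from these counts. Of the members tested, the groups did not overlap in CPM for TNFRSF1A, TNFRSF1B and TNFRSF10A, where 67.1% of all tested genes did not overlap (32.1% above and 35.1% below control). The groups of CD40 and LTBR did not overlap in CPM either, but with at most 4 and 6 counts in a library neither gene entered the test. The share of tested genes does not cover them. In TPM, with a background of 59.8%, the groups did not overlap for TNFRSF1A, TNFRSF1B and TNFRSF10A.

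**Figure D4:**
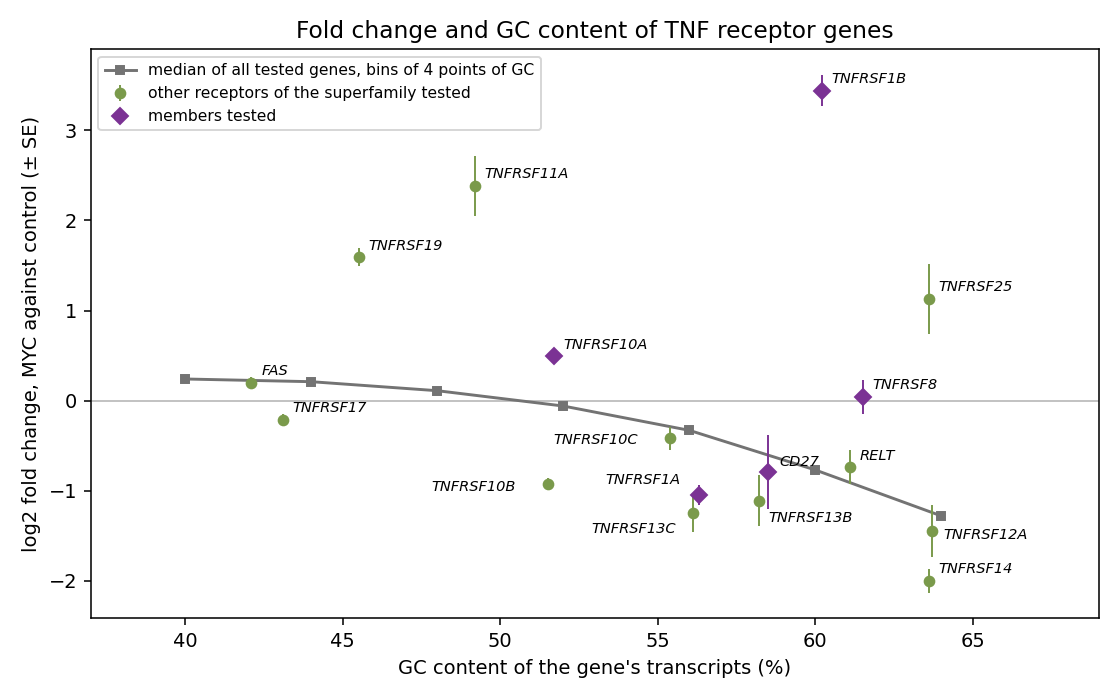
log2 fold change of MYC against control (± SE, from 3 libraries a group) against transcript GC content in percent, for the 5 members tested (diamonds) and the 12 other receptors tested (circles), with the median of all tested genes in bins of 4 percentage points (squares and line). TNFRSF1B at 60.2% GC lies at 3.44 while the line there is below 0, TNFRSF8 lies near 0 above the line, and TNFRSF1A lies below it.

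The members covered a wide range of levels. Per length, the order in control was TNFRSF10A at 16.2 ± 0.182 TPM, TNFRSF1A at 5.95 ± 0.366, TNFRSF8 at 0.53 ± 0.156, CD27 at 0.25 ± 0.02 and TNFRSF1B at 0.19 TPM (SD, n = 3). LTBR, TNFRSF18, CD40, TNFRSF21 and TNFRSF10D followed at mean levels of 0.0667 TPM or less. In MYC the order was TNFRSF10A at 21.9 ± 0.881 TPM, TNFRSF1A at 4.52 ± 1.00, TNFRSF1B at 1.90 ± 0.227 and TNFRSF8 at 0.617 ± 0.116, so that TNFRSF1B stood in the fifth place in control and in the third in MYC. In MYC, LTBR at 0.207 ± 0.178 and CD27 at 0.193 ± 0.0833 TPM did not differ beyond their spread. TNFRSF18 at 0.11 ± 0.165 TPM overlapped both, while CD40 at 0.05 ± 0.0265 TPM lay below every CD27 and LTBR value. The deposited TPM have 2 decimals, which limits the lowest values. The 10 members together held 22.8 to 23.7 TPM in control and 28.3 to 31.7 TPM in MYC, whereas TNFRSF17 alone held 360 to 424 TPM in control and 310 to 339 TPM in MYC, or 78.2 to 81.0% of the summed TPM of all the family's receptors.

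The genes with TPM profiles closest to TNFRSF1B over the 6 libraries, among 19206 protein-coding genes, were HLA-DQA2, PGLYRP4 and TUBB4A, with root mean square differences of 0.242, 0.266 and 0.272 on the log2(TPM + 0.1) scale. HLA-DQA2 stood at 0.13, 0.22 and 0.19 TPM in control and at 1.64, 1.87 and 1.30 TPM in MYC. HLA-DQA2 has close paralogs that may share its reads.

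Of the 19 other receptors, 12 were tested, and 4 rose and 8 fell (median log2 fold change -0.58, against -0.02 over all genes, of which 28.8% were called higher and 32.1% lower). With the GC offset 3 rose and 5 fell (median -0.14), against 30.2% and 29.2% of all genes. TNFRSF19 rose 3.01-fold to 8.40 ± 0.414 CPM (SD, n = 3, adjusted p = 6.69e-06, edgeR), and TNFRSF11A, or RANK, rose 5.20-fold from 0.109 CPM (adjusted p = 0.000352, edgeR). Both TNFRSF11A and TNFRSF25 passed the expression filter only through their MYC libraries. Nothing is therefore read from their adjusted p or from their place among the receptors that rose. TNFRSF13B and TNFRSF13C, the TACI and BAFF receptors, fell 2.16-fold and 2.37-fold, and TNFRSF17 fell 1.16-fold. With the GC offset TNFRSF19 was 2.6-fold and TNFRSF11A 4.88-fold higher, and TNFRSF13B, TNFRSF13C and TNFRSF17 were 1.47-fold, 1.86-fold and 1.34-fold lower. These changes passed with the GC offset too, that of TNFRSF13B narrowly (adjusted p = 0.0482, edgeR), while those of FAS, TNFRSF12A, RELT and TNFRSF10C did not. The change of TNFRSF11A missed the threshold on log2(TPM + 1) (adjusted p = 0.104, limma). TNFRSF25, whose mean was 0.131 CPM in control and 0.263 with MYC, was called higher both ways, but its groups overlapped and DESeq2 did not call it (adjusted p = 0.127). The mean transcript length of TNFRSF25 was 1.46 times longer in MYC with no overlap, and the call ended with the effective length offset (1.35-fold, adjusted p = 0.348, edgeR) and on log2(TPM + 0.1) (adjusted p = 0.453, limma). Without the offset its call ended without MYC replicate 1 (adjusted p = 0.0556), MYC replicate 2 (0.233), control replicate 2 (0.108) or control replicate 3 (0.133).

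Among the 18 ligands, 9 were tested, and 5 rose and 2 fell (median log2 fold change 0.29), or 6 and 2 with the GC offset. Those that rose include TNFSF14, which entered the test only through its MYC libraries. Over all tested genes 28.8% were higher and 32.1% lower, or 30.2% and 29.2% with the offset, and these shares are the background of each list that follows. TNFSF4 rose 1.65-fold (adjusted p = 0.000577, edgeR), or 1.39-fold with the GC offset. Of 22 adaptors and proximal signalling genes, 6 rose and 10 fell (median -0.09), and with the offset 7 rose and 13 fell. Both fits called 4 higher and 8 lower, and TRADD and TRAF4 were called in opposite directions, 1.88-fold and 1.47-fold lower from the counts and 1.42-fold and 1.16-fold higher with the offset. TRAF5, an adaptor of several members, rose 2.04-fold, while the linear ubiquitin ligase subunits SHARPIN, RBCK1 and RNF31 fell 3.79-fold, 2.76-fold and 1.89-fold, and TAB1 fell 2.15-fold. With the offset these falls were 1.38-fold, 1.17-fold, 1.15-fold and 1.26-fold, and the rise of TRAF5 was 1.75-fold. BIRC3, an inhibitor of apoptosis protein bound to TRAF2, rose 1.57-fold, or 1.33-fold with the offset. The mean transcript length of RNF31 was 1431 bases in control and 1160 bases in MYC, without overlap. With the effective length offset RNF31 fell 1.47-fold.

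In the death branch, 2 of 11 rose and 5 fell (median -0.11), and 4 rose and 5 fell with the GC offset, of which 2 and 4 were called the same way in both fits. With 60.8% of all tested genes called, 7 of 11 is near the background. CASP8, the initiator caspase, rose 1.43-fold and its inhibitor CFLAR fell 1.19-fold (adjusted p = 0.000183 and 0.00488, edgeR), or 1.24-fold and 1.34-fold with the offset. FADD was called 1.31-fold lower, whereas the GC offset put it 1.16-fold higher. MLKL rose 1.16-fold (adjusted p = 0.00861, edgeR), or 1.07-fold with the offset. DIABLO fell 1.23-fold (adjusted p = 0.0124, edgeR), or 1.27-fold with the offset. The call of MLKL ended on log2(TPM + 0.1) (adjusted p = 0.128, limma) and without an expression filter (adjusted p = 0.098, edgeR). That of DIABLO ended with the effective length offset (adjusted p = 0.088, edgeR). Of 19 NF-kB subunits, inhibitors and targets tested, 8 rose and 10 fell (median -0.32), whereas with the GC offset 13 rose and 2 fell (median 0.20), and 6 were called in opposite directions, so no direction is given for the list. CCR7, a chemokine receptor, rose 24.8-fold to 7.66 ± 0.475 CPM (SD, n = 3, adjusted p = 3.06e-07, edgeR), and the costimulatory ligands CD86 and CD80 rose 3.41-fold and 4.77-fold. The GC offset put CCR7 30.1-fold, CD86 2.93-fold and CD80 4.12-fold higher. RELA, the 1 gene of the list called lower in both fits, fell 1.89-fold (adjusted p = 0.000124, edgeR), or 1.09-fold with the offset (adjusted p = 0.0105, edgeR). The abundant NFKB2 and ICAM1 were called 1.74-fold and 1.25-fold lower, but 1.13-fold and 1.14-fold higher with the offset. The mean transcript length of NFKB2 was 2618 bases in control and 1842 bases in MYC, without overlap. With the effective length offset its fall was 1.19-fold. Of the genes of receptor shedding, 4 were tested, of which 1 rose and 2 fell, or 0 and 3 with the GC offset, against the same background. The 1 gene called higher, the protease ADAM10, was not called with the offset (log2 fold change -0.04, adjusted p = 0.282, edgeR). RHBDF2 and RHBDF1, partners of the protease ADAM17, fell 3.02-fold and 3.6-fold, or 1.44-fold and 1.69-fold with the offset. The call of RHBDF1 ended with the replicate block and the GC offset together (-0.78 ± 0.30 SE on the log2 scale, adjusted p = 0.051, edgeR). RHBDF1 passed the expression filter only through its control libraries. ADAM17 itself was not called from the counts (adjusted p = 0.282, edgeR) and was 1.11-fold lower with the offset (adjusted p = 0.00395, edgeR).

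**Figure D5:**
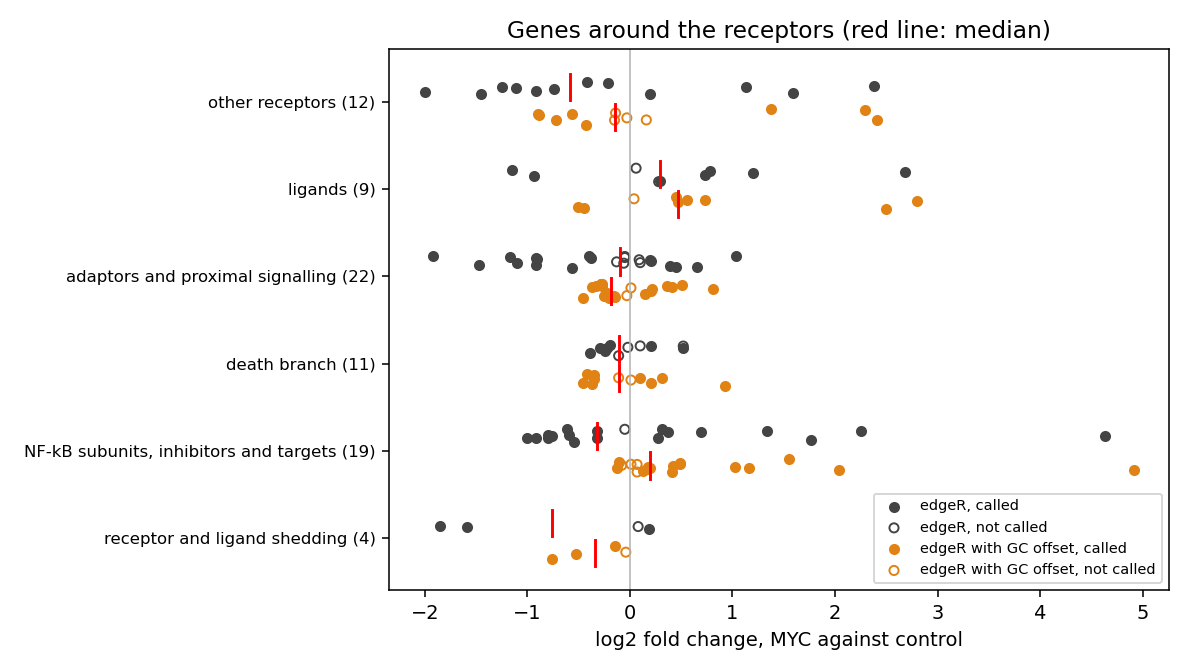
log2 fold change of MYC against control for each tested gene of 6 lists (number tested in brackets), from the counts (grey) and with the GC offset (orange), filled where the adjusted p was under 0.05, with the median as a red line. The median of the NF-kB list moves from -0.32 to 0.20 with the offset, and CCR7 is the point at 4.63 and 4.91.

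Markers of other cell types moved with the groups as well, and their part in the values of TNFRSF1B, CD40 and LTBR was not tested. The summed TPM of 9 T and NK cell markers was 9.48 to 12.2 in control and 16.6 to 18.4 in MYC, that of 7 myeloid markers 5.04 to 5.61 and 6.51 to 8.03, and that of 7 B cell markers 41.2 to 44.0 and 26.7 to 33.8. Stromal and endothelial markers summed to 4.06 to 4.43 and 3.78 to 3.97 TPM, and epithelial markers to 4.02 to 4.78 and 7.59 to 8.69 TPM. Single genes made up most of some sums. In control and MYC, CD79B held means of 37.9 and 22.9 TPM, the myeloid marker CD33 3.43 and 5.78 TPM, and the epithelial marker KRT18 2.79 and 5.97 TPM. Among the T and NK cell markers, CD3E held 5.46 and 8.99 TPM, GNLY 0.107 and 3.17 TPM and CD3D 0.733 and 2.06 TPM. By contrast, CD2 held 3.36 and 2.22 TPM and CD8A 0.563 and 0.43 TPM. GNLY passed the expression filter only through its MYC libraries. The B cell markers PAX5 and CIITA were called higher in both fits, whereas CD79A and CD79B were called lower from the counts only. The monocyte marker CD14 stood at 0.217 and 0.0867 TPM, the B cell marker MS4A1 at 0.00667 and 0.0267 TPM, and FCGR1A, MPO, CDH5 and KRT19 had at most 3 counts in any library. Of 7 T and NK cell markers tested, 4 were called higher and 2 lower, of 3 myeloid markers 1 and 1, and of 5 B cell markers 2 and 2. Of 3 stromal and endothelial markers 2 were called higher and 1 lower, of 2 epithelial markers 1 and 0, and of 9 plasma cell markers 1 and 5, against 28.8% and 32.1% of all genes. No marker was at 0 in all 6 libraries. In a bulk sample, fewer cells of a type and less RNA per cell cannot be told apart.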

How the data were processed

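Poly-A RNA-seq of 3 control and 3 MYC-overexpressing U266 samples was analysed, with a library kit, named in the labels' protocols, that does not mark strand. The authors deposited 1 RSEM table per library, and per the file headers each gene row holds an expected count (an estimated count that shares reads between similar genes), a TPM and 2 lengths, of which 1 is the effective length. Per the submitters' processing notes, cutadapt, TopHat2 and GRCh37 were used, while the sources used here name neither their versions nor the gene annotation. Of 57820 gene identifiers, 51996 matched a symbol, with 98.3% of the counts. IKBKG, CCL3, CCL4, SOD2 and PECAM1 of the lists had no match. After rounding, expected counts went into the quasi-likelihood F test of edgeR 4.0.16 (R 4.3.3) with group as the term, TMM factors and filterByExpr, and p-values were adjusted over 17679 genes by Benjamini-Hochberg, with calls made under 0.05. The SE was derived from the F statistic. For the GC offset, a loess curve (span 0.4) of log2 CPM against the GC content of GENCODE 29 transcripts was fitted in each library and removed for 17049 genes, and TMM factors were computed after it. The effective length was used only in an alternative. The fit was tested on simulated data with a small set of changed genes and no GC trend, so that test does not bear on the trend. Alternatives included DESeq2 1.42.0 and limma 3.58.1 on log2(TPM + 1) and log2(TPM + 0.1). The members and lists were chosen with earlier results of these data known. Named were the members and MYC, the other receptors, up to 4 called genes with the smallest adjusted p and the 2 most abundant of each list, and the 3 genes closest to TNFRSF1B. Genes that stand outside this rule (LTB, TNF, CD40LG, TNFSF8, TNFSF18, CD27-AS1, TAPBPL, RHOBTB2, TRADD, TRAF4 and single markers) were named for their link to a member or their opposite calls after their values were seen. Neighbouring and overlapping genes were taken from GENCODE 29 (GRCh38). Counting limits cover counting error only, since PCR copies were not told apart by molecular identifiers.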

Additional observations from a re-analysis of the deposited data

How the results depend on the processing

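With the GC offset, and with that offset and the replicate block, the log2 fold changes became 4.23 and 4.22 for TNFRSF1B, -0.69 and -0.68 for TNFRSF1A, 0.53 and 0.53 for TNFRSF10A, 1.01 and 1.02 for TNFRSF8 and -0.19 and -0.08 for CD27. On log2(TPM + 0.1) and log2(TPM + 1) they were 2.78 and 1.28 for TNFRSF1B, -0.41 and -0.35 for TNFRSF1A, 0.44 and 0.42 for TNFRSF10A and -0.30 and -0.07 for CD27, where the pseudocount compresses low genes. With the effective length offset TNFRSF1A was at -0.38. Leaving out 1 library at a time gave 3.35 to 3.56 for TNFRSF1B, -1.12 to -0.97 for TNFRSF1A, 0.45 to 0.50 for TNFRSF10A, -0.09 to 0.13 for TNFRSF8 and, in the 4 fits that kept it, -1.14 to -0.17 for CD27. Both GC offset fits gave 5 other receptors lower, 4 death branch genes higher, 13 NF-kB genes higher and 2 lower, and 0 shedding genes higher. With the GC offset, and with it and the replicate block, directions turned among the genes named by rule for FAS (-0.03 and -0.03), RELT (0.16 and 0.16), FADD (0.21 and 0.21), NFKB2 (0.17 and 0.17), ICAM1 (0.18 and 0.18), ADAM17 (-0.15 and -0.15) and ADAM10 (-0.04 and -0.04). Genes of the lists outside the naming rule turned with the GC offset as well, among them TRADD and TRAF4. ADAM10 also turned with the effective length offset (-0.01) and on log2(TPM + 0.1) and log2(TPM + 1) (-0.04 and -0.04). Other receptors called higher numbered 2 with the effective length offset, 2 on log2(TPM + 0.1), 1 on log2(TPM + 1), 2 with a mean CPM of at least 5 and 2 to 4 with 1 library left out, with 2 without MYC replicate 2, control replicate 2 or control replicate 3. Death branch genes called higher were 1 on log2(TPM + 0.1), 1 on log2(TPM + 1) and 1 without an expression filter. With a mean CPM of at least 5, which tests fewer genes, 3694 of all genes were lower, 3 other receptors were lower, 1 ligand was higher and 1 lower, 5 NF-kB genes were higher and 1 shedding gene was lower. The 1 shedding gene called higher, ADAM10, was lost (0 called) with the effective length offset, on log2(TPM + 0.1) and log2(TPM + 1), without an expression filter, with the replicate block and with total counts only, and the count was 0 to 1 with 1 library left out, with 0 without MYC replicate 2, control replicate 2 or control replicate 3. With the replicate block 3 death branch genes were lower, and 3 to 5 with 1 library left out, with 3 without MYC replicate 1 or control replicate 3. Apart from what is given here, the cause of these moves was not tested. The replicate block gave 4649 genes higher and 5380 lower, against 5085 and 5671. Same-numbered samples deviated together with correlations of -0.047, 0.078 and 0.11, so the numbers were not taken to pair them, and not every sample correlated best with its own number. The shallowest library, MYC replicate 1, limits genes near the floor most.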
